A study of Mus musculus with 2 samples.

Results

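The p53 target genes other than p21 were followed in mouse brain carrying a KR158 glioma graft. The 32 member genes were matched by symbol, and all 32 were found among the 32285 genes listed for both libraries. Their names were fixed from knowledge of the p53 pathway, but the set was proposed after levels of its genes in these same cells had been seen, so every ratio of members below is a description and none is a test. The values that chose it were the ratios between libraries within cell classes and the ratios between microglia with and without Cdkn1a (p21) RNA. A minimum level further decides which members can be counted. In microglia the members just inside that minimum were Polk, with a mean of 20.9 CPM over both libraries, and Aen, just above it, and the member just outside was Xpc, with 19.2.

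The p53 protein, encoded by Trp53, is a transcription factor that is held at low levels by Mdm2 and accumulates when DNA is damaged or when cells meet other stresses. It then raises transcription of genes that stop the cell cycle, of which Cdkn1a is the best known, that prepare mitochondria for cell death, that repair DNA, and that restrain growth. Mdm2 is itself a target, which closes a feedback loop. p53 is controlled mostly through protein stability, so its activity can change with no change in Trp53 RNA.

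There was 1 library per genotype, made from brain tissue around the injection site. The cKO host was Cx3cr1 CreER/+ Plxnb2 fl/fl and the control host Cx3cr1 CreER/+ Plxnb2 fl/+, so the control, although titled WT, carried 1 floxed allele of Plxnb2, which encodes the semaphorin receptor Plexin-B2. Both hosts had a CreER recombinase allele at Cx3cr1, a gene of microglia and other macrophages. Both also had tamoxifen (100 mg/kg, starting 3 days ahead of the graft and repeated up to 8 weeks) and the graft of KR158 cells, a mouse glioma line derived from animals with mutant Nf1 and Trp53. How many animals went into a library is not stated in the labels. Because each genotype has 1 library, no test could be made, and effects of genotype, of the animal and of preparation cannot be told apart.

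The cKO library held 63785513 UMIs and the control library 64756949 UMIs, a UMI being 1 tagged RNA molecule. The deposited cKO matrix was unfiltered, with 20.6% of its UMIs in barcodes under 500 UMIs, and the control matrix was filtered at 500. Filtering kept 5206 cKO and 7624 control cells, with 8 barcode sequences occurring in both. The microglia-like class, called microglia here, held 715 cKO and 1652 control cells with median depths of 5434 and 3492.5 UMIs. All 10 microglial markers were detected, each in 75.8% to 99.9% of cKO and 65.7% to 100% of control microglia. Plxnb2 stood at 44.5 CPM in cKO and 217 CPM in control microglia, a log2 ratio of -2.29 (-2.52 to -2.07). CPM is a gene's share of all UMIs in the summed cells of a class, per 1000000 UMIs. All intervals are 95% and cover counting error only.

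Upstream sequences are shown for members whose levels carry the results below, because p53 acts by binding a 10-base consensus decamer, usually as a pair. RefSeq windows on GRCm38.p6, running from 250 bases before to 50 bases after an annotated start, were found for 24 of the 32 members. The exact decamer, a pattern that reads the same on both strands, was present in 10 of these 24 members (41.7%), against 2582 of all 27025 genes with a window (9.55%). A pair of decamers was also searched, at most 13 bases apart, with at most 2 mismatches over the 20 bases and with the C and G of both cores kept; it may contain the single decamer. The pair was present in 5 of the 24 members (20.8%), against 4.71% of all genes. Those 5 were Ccng1, Bax, Rps27l, Gadd45a and Sesn1, of which Gadd45a and Sesn1 were not higher in cKO microglia. Of members with a window, 5 of 10 that were higher in cKO microglia held the decamer, as did 5 of the 14 others. The 250 bases before the start of Ccng1, Bax and Phlda3, in the direction of transcription, and the paired site of Rps27l follow, with the decamers in capitals.
Ccng1: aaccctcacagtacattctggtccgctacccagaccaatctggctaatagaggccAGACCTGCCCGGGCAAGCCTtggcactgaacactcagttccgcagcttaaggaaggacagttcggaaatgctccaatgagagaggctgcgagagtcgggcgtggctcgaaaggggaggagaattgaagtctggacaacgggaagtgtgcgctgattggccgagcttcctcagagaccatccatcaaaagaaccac
Bax: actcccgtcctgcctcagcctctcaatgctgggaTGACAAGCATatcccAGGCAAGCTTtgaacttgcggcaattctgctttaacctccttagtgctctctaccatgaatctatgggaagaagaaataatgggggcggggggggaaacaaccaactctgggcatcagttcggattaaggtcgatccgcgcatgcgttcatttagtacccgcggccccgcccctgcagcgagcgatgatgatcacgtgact
Phlda3: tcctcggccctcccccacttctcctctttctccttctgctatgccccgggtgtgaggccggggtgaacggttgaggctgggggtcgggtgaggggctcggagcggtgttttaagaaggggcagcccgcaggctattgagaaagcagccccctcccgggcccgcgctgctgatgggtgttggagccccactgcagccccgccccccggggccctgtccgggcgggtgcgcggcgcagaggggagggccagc
Rps27l: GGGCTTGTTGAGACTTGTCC
The Ccng1 stretch lies at chr11:40755287-40755536 on the minus strand, and its pair, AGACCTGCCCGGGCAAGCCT, starts 195 bases before the start, has no spacer and has 1 mismatch. The Bax stretch lies at chr7:45466899-45467148 on the minus strand, and its pair starts 216 bases before the start, with a spacer of 5 bases and 2 mismatches. The Phlda3 stretch lies at chr1:135765835-135766084 on the plus strand and holds neither the decamer nor the pair, which says only that these letters are not in this window. The Rps27l pair lies at chr9:66946296-66946315 on the plus strand, 117 bases before the downstream of its annotated starts and within the gene, and has 1 mismatch. The Ccng1 and Bax pairs lie outside annotated transcripts of their genes in GENCODE vM21. A match is a description of the letters, not a measured binding site.

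In microglia, 20 of the 32 members passed the minimum of 20 CPM on average, and 11 of them were higher in cKO by the rule used throughout, at least 1.5-fold with an interval excluding equality. None of the 20 was lower and 9 met neither side. Over all 6453 genes that passed, 2.99% were higher and 2.12% lower by the same rule; since the members were chosen with this contrast in view, nothing is read from the difference. The median log2 ratio was 0.78 over the 20 members and 0.00 over all genes. Phlda3, Aen, Bbc3 and Gdf15, each under 20 CPM in control cells, passed only through their cKO level, so they had to differ. Summed over the 32 members, the level was 2659 CPM in cKO and 1811 CPM in control microglia, of which Btg2 alone made up 893 and 834 CPM. After every cell was thinned to 1000 UMIs, 11 of 20 members were again higher and none lower, against 5.17% higher and 2.92% lower over all genes. Trp53 (0.62) and Apaf1 (1.07) then entered, while Mdm2 (0.54) and Phlda3 (2.60, under the minimum) left. Apaf1, Aen, Bbc3, Gdf15 and Plk3, each under 20 CPM in thinned control cells, passed only through their cKO level, so they had to differ. At that depth, 26.6% of cKO and 13.3% of control microglia had UMIs of at least 3 different members.

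**Figure D1:**
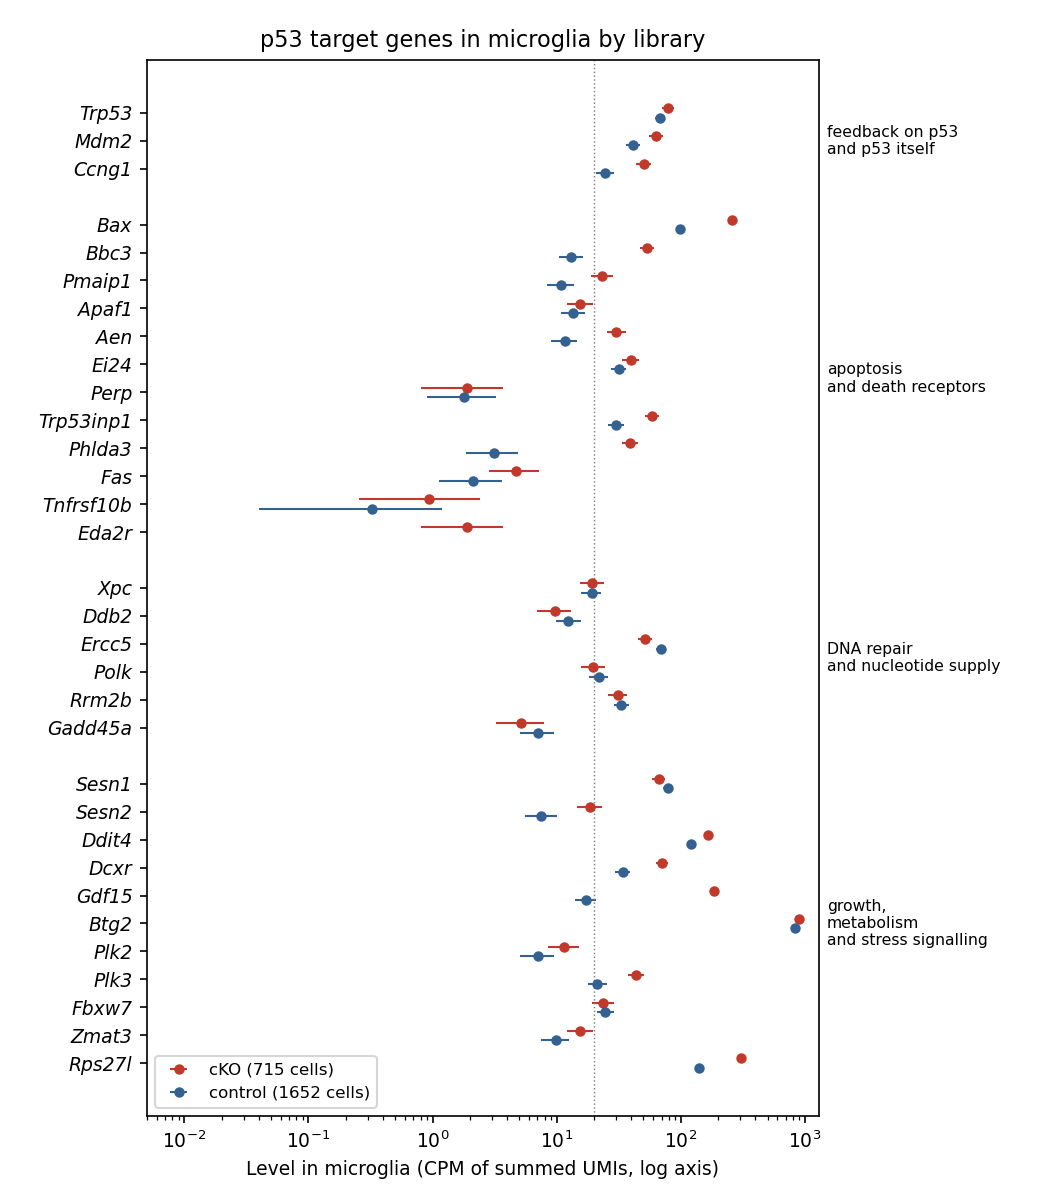
Level of each of the 32 members in microglia, in CPM on a log axis, for the cKO library (red, 715 cells) and the control library (blue, 1652 cells), grouped by role, with 95% counting intervals as bars and the 20 CPM minimum as a dotted line; Eda2r has no control point because it had no UMI there. The red and blue points are farthest apart for Phlda3 (39.0 against 3.11 CPM) and Gdf15 (187 against 17.2 CPM), and nearly coincide for the DNA repair genes Xpc and Rrm2b.

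Of the feedback loop, Mdm2 and Ccng1 were higher in cKO microglia before thinning, while Trp53 itself did not reach 1.5-fold. Trp53 (chromosome 11, 69580359 to 69591873 on mm10) had 338 UMIs in cKO and 415 in control microglia, which is 79.5 CPM (71.3 to 88.4) and 68.0 CPM (61.6 to 74.8), a log2 ratio of 0.23 (0.01 to 0.44). A Trp53 UMI was present in 36.5% of cKO and 21.2% of control microglia. Mdm2 is the ubiquitin ligase that marks p53 for degradation (chromosome 10, 117688875 to 117710758). With 269 UMIs in 26.4% of cKO and 252 UMIs in 13.7% of control microglia, it stood at 63.3 CPM (55.9 to 71.3) in cKO and 41.3 CPM (36.3 to 46.7) in control, a log2 ratio of 0.62 (0.36 to 0.87). Ccng1 encodes cyclin G1, which acts on Mdm2 together with a phosphatase. With 213 UMIs in 21.7% of cKO and 150 UMIs in 7.99% of control microglia, its level was 50.1 CPM (43.6 to 57.3) in cKO and 24.6 CPM (20.8 to 28.8) in control, a log2 ratio of 1.03 (0.72 to 1.34). The Mdm2 ratio lies close to the threshold of 1.5-fold, which is 0.58 on the log2 scale, and the gene no longer met it in thinned cells, at 0.54. Trp53 did meet it in thinned cells, at 0.62.

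Of the 12 apoptosis members, 6 passed the minimum and 5 of these were higher in cKO, with a median log2 ratio of 1.39. Bax forms the pore that opens the outer mitochondrial membrane (chromosome 7, 45461697 to 45466898). It had 1106 UMIs in cKO and 607 in control microglia, or 260 CPM (245 to 276) and 99.4 CPM (91.7 to 108), a log2 ratio of 1.39 (1.24 to 1.53). A Bax UMI was present in 60.3% of cKO and 28.3% of control microglia, and in 20.3% and 9.02% after thinning to equal depth, so the gene was detected widely and more widely in the cKO library. Bax overlaps the annotated gene Gm45808 on its own strand, but the matrices list no gene of that symbol, so reads there could not be assigned to it. Bbc3 encodes Puma, which releases Bax from its inhibitors. With 227 UMIs in 21.5% of cKO and 80 UMIs in 4.54% of control microglia, its level was 53.4 CPM (46.7 to 60.8) in cKO and 13.1 CPM (10.4 to 16.3) in control, a log2 ratio of 2.03 (1.65 to 2.41). Aen, an exonuclease of apoptotic cells, had 129 UMIs in 105 cKO microglia and 71 UMIs in 66 control microglia. Its level was 30.3 CPM (25.3 to 36.1) in cKO and 11.6 CPM (9.08 to 14.7) in control, a log2 ratio of 1.38 (0.95 to 1.82). Both were found in few control cells. Trp53inp1 encodes a stress protein that acts with p53. With 249 UMIs in 22.9% of cKO and 185 UMIs in 9.75% of control microglia, it stood at 58.6 CPM (51.5 to 66.3) in cKO and 30.3 CPM (26.1 to 35.0) in control, a log2 ratio of 0.95 (0.67 to 1.23).

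Phlda3 was the member with the highest ratio, rank 5 of the 6453 genes. It encodes a small protein that binds membrane phosphoinositides and thereby holds back the survival kinase Akt (chromosome 1, 135766119 to 135769136). There were 166 Phlda3 UMIs in 120 cKO microglia (16.8%) and 19 UMIs in 18 control microglia (1.09%). That is 39.0 CPM (33.3 to 45.5) in cKO and 3.11 CPM (1.87 to 4.86) in control, a log2 ratio of 3.65 (2.96 to 4.42). No cell held more than 4 Phlda3 UMIs. Phlda3 RNA was more abundant in oligodendrocytes, at 215 CPM in cKO and 205 CPM in control, than in microglia. Summed oligodendrocyte markers in microglia, all 8 detected in both libraries, stood at 620 CPM in cKO and 906 CPM in control; their part in the Phlda3 values was not tested. Ei24, an endoplasmic reticulum protein, had 168 UMIs in 19.2% of cKO and 193 UMIs in 10.7% of control microglia, was at 39.5 CPM in cKO and 31.6 CPM in control (0.32, 0.01 to 0.63), and met neither side of the rule; it overlaps Gm26787 on the opposite strand.

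The other 6 apoptosis members lay under the minimum. Pmaip1, which encodes Noxa, a partner of Puma in blocking survival proteins, came nearest, with 23.3 CPM in cKO and 10.8 CPM in control microglia. Apaf1, the scaffold on which caspases are activated, stood at 15.5 CPM in cKO and 13.6 CPM in control. The death receptors were scarce: Fas had 20 UMIs in cKO and 13 in control, Tnfrsf10b 4 and 2, and Eda2r 8 and 0. A count of 0 allows up to 0.491 CPM. The Eda2r level in cKO was 3.83-fold that limit, a value that leaves out the counting error of the 8 UMIs and is no lower bound. Perp, a junction protein, had 8 UMIs in cKO and 11 in control microglia. Death receptor genes of the p53 programme were thus barely detectable in microglia at this depth in either library.

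Among the 6 members of DNA repair and nucleotide supply, 3 passed the minimum and none was called, with a median log2 ratio of -0.15. Ercc5, an excision repair nuclease, stood at 51.7 CPM in cKO and 69.6 CPM in control microglia (-0.43, -0.67 to -0.19). Rrm2b, a ribonucleotide reductase subunit, stood at 31.0 CPM in cKO and 33.2 CPM in control. Polk, a polymerase that copies past lesions, stood at 19.8 CPM in cKO and 21.9 CPM in control. Levels of these 3 genes were thus slightly lower in cKO microglia or overlapped within counting error. Under the minimum, Xpc was at 19.3 CPM in cKO and 19.2 CPM in control, Ddb2 at 9.64 and 12.4 CPM, and Gadd45a at 5.17 and 7.04 CPM; Xpc and Ddb2 recognise damaged bases and Gadd45a is a damage-response regulator.

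Of the 11 members in growth, metabolism and stress signalling, 8 passed and 4 were higher in cKO microglia: Gdf15, Rps27l, Dcxr and Plk3. Gdf15, a secreted stress cytokine (chromosome 8, 70629393 to 70632456), had 793 UMIs in cKO and 105 in control microglia. Its level was 187 CPM (174 to 200) in cKO and 17.2 CPM (14.1 to 20.8) in control, a log2 ratio of 3.44 (3.14 to 3.75). These UMIs came from few cells, 75 cKO microglia (10.5%) and 36 control microglia (2.18%). The cell with the most Gdf15 held 69 UMIs in the cKO and 21 UMIs in the control library, or 8.70% and 20.0% of that library's microglial Gdf15. After thinning, 5.45% of cKO and 1.03% of control microglia had a Gdf15 UMI. In oligodendrocytes, with median depths of 7582 and 6431 UMIs, 0 of 562 thinned cKO cells and 0 of 951 thinned control cells had one, which allows shares of up to 0.534% and 0.315%; this limits cells with a detected UMI at that depth, not cells expressing the gene.

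Rps27l encodes a ribosomal protein closely related to Rps27 (chromosome 9, 66946086 to 66949516). With 1294 UMIs in 61.1% of cKO and 858 UMIs in 35.5% of control microglia, it stood at 304 CPM (288 to 321) in cKO and 141 CPM (131 to 150) in control microglia, a log2 ratio of 1.11 (0.99 to 1.24). The related gene Rps27 had a log2 ratio of 0.24, and how reads matching both genes were counted was not examined. Dcxr, a carbonyl and sugar reductase, had 301 UMIs in 27.7% of cKO and 208 UMIs in 10.8% of control microglia. It stood at 70.8 CPM (63.0 to 79.3) in cKO and 34.1 CPM (29.6 to 39.0) in control, a log2 ratio of 1.06 (0.80 to 1.32). Plk3 is a stress-responsive polo-like kinase. With 187 UMIs in 19.3% of cKO and 130 UMIs in 6.90% of control microglia, it stood at 44.0 CPM (37.9 to 50.8) in cKO and 21.3 CPM (17.8 to 25.3) in control, a log2 ratio of 1.05 (0.72 to 1.38). Plk3 overlaps Tctex1d4 on the opposite strand, and whether counting used strand is not stated in the labels.

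The remaining growth members met neither side or lay under the minimum. Btg2, an antiproliferative partner of the mRNA deadenylase complex, had a UMI in 74.7% of cKO and 73.1% of control microglia, at 893 CPM (864 to 922) in cKO and 834 CPM (811 to 857) in control microglia. Ddit4, which restrains the growth kinase complex mTORC1, stood at 166 CPM in cKO and 121 CPM in control, a log2 ratio of 0.46 (0.31 to 0.61). Sesn1, which restrains the same complex, stood at 66.3 CPM in cKO and 78.6 CPM in control (-0.25, -0.46 to -0.03). Fbxw7, the substrate receptor of a ubiquitin ligase, was at 23.8 CPM in cKO and 24.7 CPM in control. None of these 4 genes reached 1.5-fold, so the higher levels in cKO microglia did not extend to every p53 target with enough counts. Under the minimum, Sesn2 was at 18.6 CPM in cKO and 7.53 CPM in control, Zmat3, an RNA-binding protein, at 15.5 and 9.83 CPM, and Plk2 at 11.5 and 7.04 CPM.

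The microglia of both libraries fell into 2 clusters that differed in depth. The deeper cluster held 567 cKO and 1282 control cells, and its summed members stood at 2691 CPM in cKO and 1793 CPM in control. In the shallower cluster, with 148 cKO and 370 control cells and median depths of 1457.5 and 1353.5 UMIs, the members summed to 2119 CPM in cKO and 1984 CPM in control. Btg2, a large part of that sum, ran the other way there, at 722 CPM (618 to 839) in cKO and 1037 CPM (954 to 1125) in control. In the deeper cluster Btg2 stood at 903 CPM in cKO and 814 CPM in control. The following values are from the shallower cluster. Rps27l stood there at 72.2 CPM (42.1 to 116) in cKO and 72.4 CPM (51.7 to 98.6) in control, on 17 and 40 UMIs. Phlda3 stood there at 12.7 CPM (2.63 to 37.2) in cKO and 9.05 CPM (2.94 to 21.1) in control, and Gdf15 had 4 UMIs in cKO and 9 in control, so neither differed beyond counting error. Bbc3 did differ there, at 72.2 CPM (42.1 to 116) in cKO and 16.3 CPM (7.45 to 30.9) in control. Bax stood there at 144 CPM (100 to 202) in cKO and 77.8 CPM (56.3 to 105) in control, and Ccng1 at 12.7 and 30.8 CPM on 3 and 17 UMIs. The members thus did not share 1 pattern in the shallower cluster, where few UMIs were available. A further 183 cKO and 113 control cells with microglial markers stayed unnamed, because of a low UMI count together with no microglial marker among the leading genes. Their members summed to 1397 CPM in cKO and 976 CPM in control, and Bax stood at 264 CPM in cKO and 135 CPM in control.

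RNA of other cells moved with the comparison. Summed choroid plexus markers in microglia stood at 2.82 CPM in cKO, with 4 of 6 markers detected, and 1789 CPM in control, with all 6 detected. Summed erythrocyte markers stood at 143 CPM in cKO and 684 CPM in control, all 4 detected in both. Monocyte or macrophage markers stood at 40.5 CPM in cKO and 15.7 CPM in control, on 9 and 8 of 9 markers. Endothelial markers stood at 183 CPM (171 to 197) in cKO and 118 CPM (110 to 127) in control, all 8 detected in both. Their part in the member values was not tested. In cKO barcodes of 1 to 100 UMIs, which hold mostly free RNA, Bax was at 97.5 CPM, Rps27l at 228 CPM, Gdf15 at 36.0 CPM and Phlda3 at 28.1 CPM. The cKO microglial levels of Bax, Gdf15 and Phlda3 lay above these values; such barcodes of the control library were not analysed here.

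Cdkn1a itself, which is not among the 32 members, stood at 681 CPM (657 to 707) in cKO and 20.8 CPM (17.3 to 24.8) in control microglia. A Cdkn1a UMI was found in 60.1% of cKO and 5.02% of control microglia, and in 37.5% and 1.76% at equal depth. In thinned oligodendrocytes the share was 1.78% in cKO and 1.58% in control cells, with an interval of 0.885% to 2.59% in control oligodendrocytes that overlaps the 1.18% to 2.51% of control microglia. The cKO microglia could therefore be divided into 430 cells with and 285 cells without a Cdkn1a UMI. Cells with one were deeper, with a median of 5928.5 UMIs, against 4074 in cells without. Both groups come from 1 library, and they share the cKO cells with the comparison above, so the counts of members are not independent of it.

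Within the cKO library, 19 members passed and 11 were higher in microglia with a Cdkn1a UMI, with none lower. Over all 6461 genes that passed, 2.49% were higher and 4.06% lower, and nothing is read from the members' count because the set was proposed with this split in view. The median log2 ratio was 0.67 over the members and -0.07 over all genes. Phlda3 had 161 UMIs in cells with and 5 UMIs in cells without Cdkn1a, or 53.8 CPM (45.8 to 62.8) and 3.98 CPM (1.29 to 9.29), a log2 ratio of 3.76 (2.50 to 5.40). Phlda3 RNA was thus found almost wholly beside Cdkn1a RNA: 115 of the 120 Phlda3-positive cells (95.8%, 90.5% to 98.6%) had a Cdkn1a UMI, as did 60.1% of all cKO microglia. Gdf15 stood at 234 CPM (217 to 252) in cells with and 73.3 CPM (59.1 to 89.9) in cells without, a log2 ratio of 1.68 (1.36 to 2.01). Of 75 Gdf15-positive cells, 66 (88.0%) had a Cdkn1a UMI. Markers of other cells moved with this split: summed endothelial markers, all 8 detected in both, stood at 206 CPM (190 to 223) in cells with and 130 CPM (111 to 151) in cells without. Monocyte or macrophage markers stood at 47.4 CPM in cells with, on 8 of 9 markers, and 23.9 CPM in cells without, on 7 of 9. Pericyte or smooth muscle markers ran the other way, at 55.4 CPM in cells with and 115 CPM in cells without, all 8 detected in both. Their part in the member values was not tested.

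All 6 apoptosis members that passed were higher in the cells with Cdkn1a. Aen stood at 38.1 CPM in cells with and 11.9 CPM in cells without, a log2 ratio of 1.67 (0.89 to 2.56). Bbc3 stood at 66.2 CPM in cells with and 23.1 CPM in cells without (1.52, 0.95 to 2.13), and Trp53inp1 at 69.8 and 31.9 CPM (1.13, 0.64 to 1.66). Phlda3 and Aen, under 20 CPM in cells without Cdkn1a, passed the minimum only through the cells with it, so they had to differ. Bax, with many more UMIs, stood at 305 CPM (285 to 325) in cells with and 154 CPM (134 to 178) in cells without (0.98, 0.75 to 1.21). Ei24, which met neither side between libraries, stood at 44.4 CPM in cells with and 27.9 CPM in cells without (0.67, 0.13 to 1.25).

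Of the feedback genes, Ccng1 was higher in cells with Cdkn1a, at 62.1 CPM against 21.5 CPM in cells without (1.53, 0.94 to 2.17). Mdm2, at 69.5 CPM in cells with and 48.6 CPM in cells without (0.52, 0.10 to 0.95), and Trp53, at 78.5 and 82.0 CPM (-0.06, -0.40 to 0.29), were not called. Trp53 RNA thus did not differ beyond counting error between cells with and without p21 RNA, within the bounds of that interval. Of the growth and stress members, Rps27l stood at 358 CPM in cells with and 177 CPM in cells without (1.02, 0.81 to 1.23). Dcxr stood at 81.5 CPM in cells with and 45.4 CPM in cells without (0.84, 0.42 to 1.29). Btg2 was higher here, with 2994 UMIs in cells with and 801 UMIs in cells without (0.65, 0.54 to 0.76), although its level between libraries was nearly equal. Plk3, higher between libraries, stood at 48.1 CPM in cells with and 34.2 CPM in cells without (0.49, -0.01 to 1.02). The repair genes that passed, Ercc5 and Rrm2b, were not called.

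**Figure D2:**
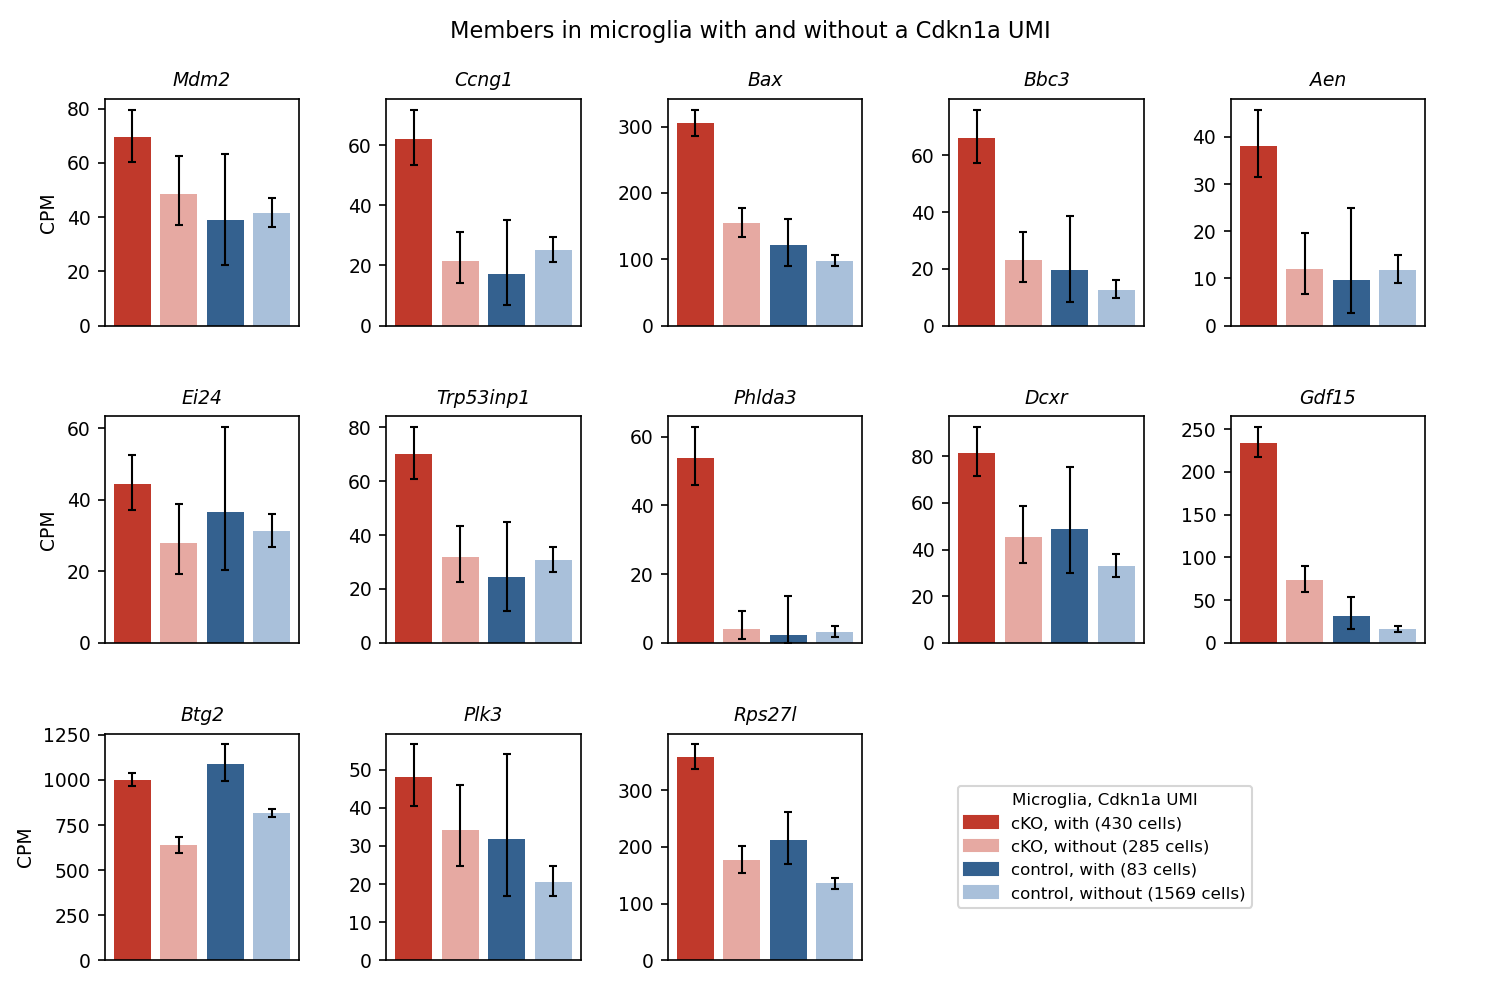
Level in CPM of the 13 members called in microglia, in 4 groups of cells: cKO with and without a Cdkn1a UMI (dark and light red, 430 and 285 cells) and control with and without one (dark and light blue, 83 and 1569 cells), with 95% counting intervals. The dark red bar stands above the light red bar for each of the 13 genes, most of all for Phlda3 (53.8 against 3.98 CPM), and for Btg2 the dark blue bar (1091 CPM) is the tallest.

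Since deeper cells more often show a Cdkn1a UMI, the split was repeated after thinning every cell to 1000 UMIs, which gave 268 cKO microglia with and 447 without one. Then 23 members passed and 8 were higher, against 2.15% higher and 2.66% lower over all genes. The 8 were Ccng1 (1.36), Bax (0.74), Pmaip1 (1.63), Aen (2.10), Phlda3 (1.74), Gdf15 (0.71), Btg2 (0.70) and Rps27l (0.86), as log2 ratios of cells with over cells without. Pmaip1, Aen and Phlda3, each at 15.7 CPM in thinned cells without Cdkn1a, passed the minimum only through the cells with it, so they had to differ. Ei24 (-0.02) and Dcxr (-0.11) changed sign, so their differences in the unthinned split were not seen at equal depth. Bbc3 (0.57) and Trp53inp1 (0.46) were no longer called, so 4 of the 8 apoptosis members that then passed were higher. Cells without a UMI after thinning include cells that had one before. UMIs of at least 3 members were found in 37.3% of thinned cells with and 20.1% of thinned cells without Cdkn1a.

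The member sum was also graded with the Cdkn1a count. In thinned cKO microglia with 0, 1, 2 and 3 or more Cdkn1a UMIs (447, 160, 57 and 51 cells), the 32 members summed to 2139, 2803, 3586 and 4114 CPM, with intervals of 2005 to 2279, 2549 to 3075, 3111 to 4113 and 3575 to 4711. The sum was higher at each step up to 2 UMIs without overlap of neighbouring intervals, and the intervals for 2 and for 3 or more overlapped. Before thinning the median depth in these cells was 5286, 5338.5, 6150 and 5581 UMIs. Rps27l stood at 183, 257, 334 and 571 CPM along the same order, Bax at 188, 263, 439 and 335 CPM, and Btg2 at 705, 945, 1512 and 1378 CPM. Btg2 held 315 of 956, 151 of 448, 86 of 204 and 70 of 209 member UMIs along that order. Whether the sum without Btg2 keeps separate intervals was not tested. Ccng1 stood at 29.1, 43.8, 52.7 and 197 CPM, the last on 10 UMIs. Trp53 showed no such order, at 105, 87.6, 123 and 39.4 CPM.

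**Figure D3:**
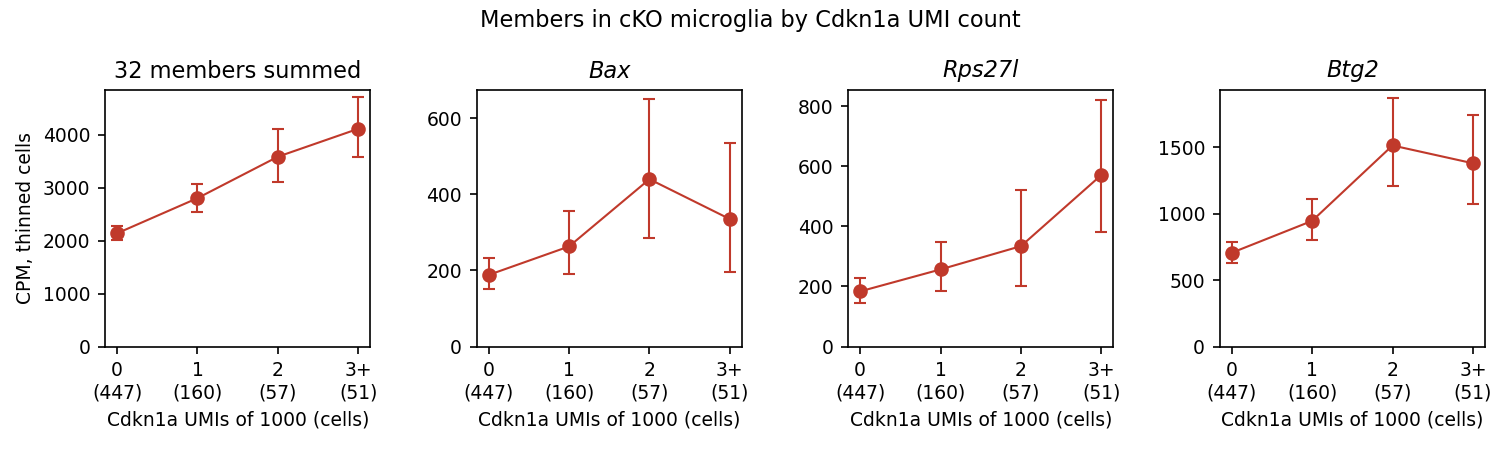
Level in CPM of the 32 members summed and of Bax, Rps27l and Btg2 in cKO microglia thinned to 1000 UMIs, by the number of Cdkn1a UMIs in the thinned cell (cell numbers in brackets), with 95% counting intervals. The sum stands at 2139 CPM in cells with 0 and 4114 CPM in cells with 3 or more Cdkn1a UMIs, while Bax and Btg2 have their highest point at 2.

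In control microglia the same division gave 83 cells with a Cdkn1a UMI and 1569 without, with median depths of 4521 and 3470 UMIs. Of 17 members that passed, 2 were higher in cells with it, against 3.12% higher and 2.90% lower over all genes. Rps27l stood at 212 CPM (170 to 262) in cells with and 135 CPM (126 to 145) in cells without (0.65, 0.31 to 0.97). Gdf15, on 13 and 92 UMIs, stood at 31.7 CPM in cells with and 16.2 CPM in cells without (0.97, 0.01 to 1.82). It passed the minimum only through the cells with Cdkn1a, so it had to differ. Phlda3, on 1 and 18 UMIs, could not be compared at this depth. The summed members stood at 2179 CPM in control microglia with and 1784 CPM in control microglia without Cdkn1a, against 3030 and 1781 CPM in the matching cKO cells.

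Among microglia without a Cdkn1a UMI, cKO and control cells were close in these sums before thinning, and few members were called. Of 18 that passed, 3 were higher in cKO, against 4.10% higher and 2.73% lower over all genes, and the median log2 ratio was 0.10. Gdf15 stood at 73.3 CPM in cKO and 16.2 CPM in control cells (2.18, 1.75 to 2.61), Plk3 at 34.2 and 20.5 CPM (0.74, 0.20 to 1.25), and Bax at 154 and 97.8 CPM (0.66, 0.42 to 0.90). Gdf15 passed the minimum only through the cKO cells, so it had to differ. Phlda3 stood at 3.98 CPM in cKO and 3.16 CPM in control cells without Cdkn1a, on 5 and 18 UMIs (0.33, -1.45 to 1.82). In thinned cells without a Cdkn1a UMI, 7 of 19 members were higher, against 5.35% higher and 2.86% lower over all genes. That group takes in cells whose only Cdkn1a UMIs were removed by thinning. Its members summed to 2139 CPM (2005 to 2279) in cKO and 1876 CPM (1809.5 to 1943) in control. Btg2, a large part of these sums, ran the other way, at 705 CPM (629 to 787) in cKO and 904 CPM (859 to 952) in control. Bbc3, Gdf15 and Plk3, each under 20 CPM in those thinned control cells, passed the minimum only through the cKO cells, so they had to differ.

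Among microglia with a Cdkn1a UMI, 430 cKO and 83 control cells, 11 of 20 members were higher in cKO, against 4.24% higher and 4.31% lower over all genes. Phlda3 had 161 UMIs in cKO and 1 in control cells, a log2 ratio of 4.46 (1.96 to 9.77). Bax stood at 305 CPM in cKO and 122 CPM in control cells (1.32, 0.91 to 1.76), and Ccng1 at 62.1 and 17.1 CPM (1.86, 0.79 to 3.20). Phlda3, Ccng1, Bbc3 and Aen, each under 20 CPM in the control cells, passed the minimum only through the cKO cells, so they had to differ. The 3 repair members that passed were not called and had a median log2 ratio of -0.45. The 430 cKO cells held 2897 Cdkn1a UMIs and the 83 control cells 127, so the groups were not matched for the amount of it. Btg2 went the other way by less than 1.5-fold, on 2994 UMIs in cKO and 447 in control cells (-0.12, -0.27 to 0.02).

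Border macrophage-like cells, the macrophages of vessels and meninges, also had lower Plxnb2 in cKO, at 33.6 CPM against 96.9 CPM in control. They numbered 83 in the cKO and 141 in the control library, so few UMIs stand behind each value. Cdkn1a stood at 351 CPM in cKO and 30.2 CPM in control, but in 24 and 11 cells. Of 19 members that passed, 5 were higher and none lower in cKO, against 7.20% higher and 3.54% lower over all genes, with a median log2 ratio of 0.27 over members and 0.09 over all genes. These were Bax (168 CPM in cKO and 92.1 CPM in control, 0.86), Ei24 (49.2 and 14.3 CPM, 1.78), Xpc (31.3 and 9.53 CPM, 1.72), Ddit4 (132 and 79.4 CPM, 0.73) and Btg2 (830 and 515 CPM, 0.69). Ei24 and Xpc, under 20 CPM in control, passed the minimum only through the cKO cells, so they had to differ. The list differed from that in microglia: Phlda3 had 1 UMI in cKO and 2 in control, and Gdf15 4 and 8 UMIs. After thinning, Btg2 alone of the 5 met the rule. Whether the classes differ was not tested.

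In astrocytes, oligodendrocytes, neuroblasts and endothelial cells few or no members were called between libraries. Few of all genes were called there too, so nothing is read from the members' counts. In astrocytes 15 members passed and none was called (over all genes, 0.696% higher and 0.912% lower), in oligodendrocytes 10 passed and none was called (0.464% and 1.63%), and in neuroblasts 13 passed and none was called (2.18% and 3.44%). In endothelial cells, which had much Cdkn1a in both libraries at 636 CPM in cKO and 566 CPM in control, 18 passed and 1 was called (1.02% and 1.41% over all genes). That gene was Plk2, at 113 CPM in cKO and 194 CPM in control (-0.78, -0.91 to -0.65). Endothelial cells thus carried p21 RNA near the level of cKO microglia in both libraries. Fas, scarce in microglia, stood in endothelial cells at 139 CPM in cKO and 110 CPM in control.

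In ependymal cells 18 members passed and Btg2 was higher, at 115 CPM in cKO and 39.8 CPM in control (1.53, 1.27 to 1.78), against 1.97% higher and 0.823% lower over all genes. In pericytes or smooth muscle cells 17 passed, 3 were higher and 1 was lower, against 5.61% higher and 3.05% lower over all genes. Xpc stood at 139 CPM in cKO and 82.9 CPM in control (0.75), Bax at 91.5 and 55.3 CPM (0.73), and Ddit4 at 115 and 72.2 CPM (0.67). Phlda3 was lower there, at 43.6 CPM in cKO and 92.2 CPM in control on 30 and 60 UMIs, a log2 ratio of -1.08 (-1.76 to -0.43), and in thinned cells it was -0.57 and not called. The direction of Phlda3 was therefore opposite in microglia and in pericytes or smooth muscle cells. Perp, nearly absent in microglia, stood at 295 CPM in cKO and 250 CPM in control in this class.

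**Figure D4:**
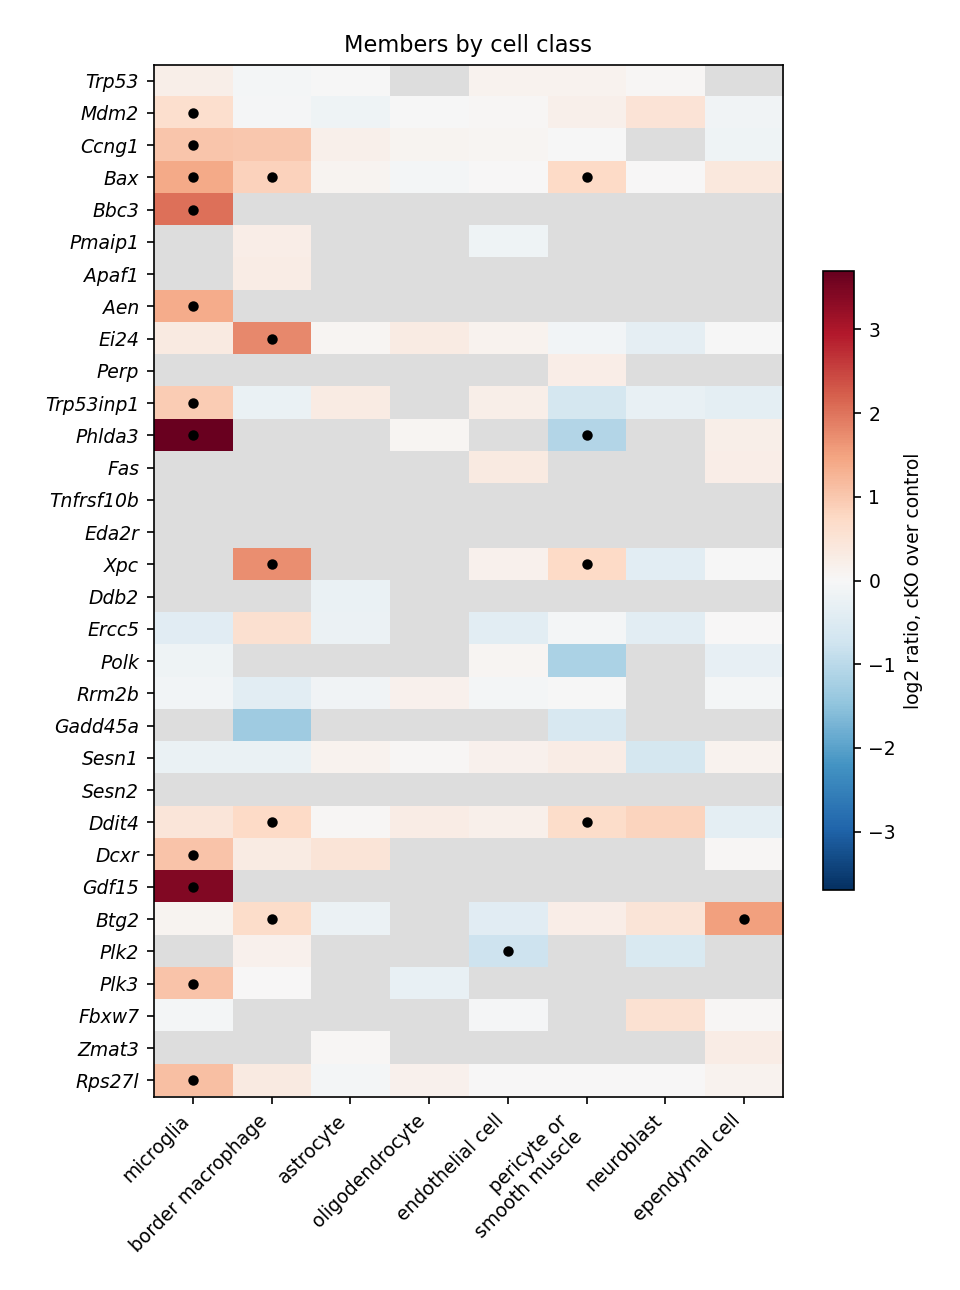
Log2 ratio of cKO over control (colour, red higher in cKO and blue lower) for the 32 members in rows and 8 cell classes in columns; grey cells are under the 20 CPM minimum and black dots mark members called. The microglia column holds 11 dots, all red, the border macrophage column 5, and the Phlda3 row is red in microglia (3.65) and blue in pericytes or smooth muscle cells (-1.08).

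Other genes of the pathway were followed in lists that were also written with earlier results known. Of 18 p53 regulators and damage kinases, 10 passed in microglia, none was higher and 1 was lower, Sirt1, a deacetylase of p53, at 16.2 CPM in cKO and 25.9 CPM in control (-0.67). Of 16 further p53 targets, 6 passed and 3 were higher: Ak1 at 61.2 CPM in cKO and 28.7 CPM in control (1.09), the noncoding RNA Pvt1 at 43.0 and 20.97 CPM (1.04), and Rap2b at 27.1 and 14.3 CPM (0.92). In the split of cKO microglia, 4 of 7 further targets were higher in cells with Cdkn1a, led by Rap2b at 32.7 CPM in cells with and 13.5 CPM in cells without (1.27). Rap2b passed the minimum only through its cKO level, and in the split only through cells with Cdkn1a, so it had to differ. Sirt1 passed only through its control level, so it too had to differ. The other 9 regulators that passed were not called and 8 were under the minimum. In thinned microglia 11 regulators passed, 1 was higher and none was lower.

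Gdf15 and Ddit4 also answer to the integrated stress response and Btg2 and Plk3 to immediate early signals, so those lists are given beside them. Of 14 genes of the integrated stress response, 8 passed in microglia and 1 was higher, the transcription factor Atf3, at 546 CPM in cKO and 258 CPM in control (1.08). Of 15 immediate early genes, all passed, 4 were higher and 2 lower, among them Ier3 at 320 CPM in cKO and 171 CPM in control (0.90), Nr4a1 at 96.9 and 57.2 CPM (0.76) and Klf2 at 126 and 238 CPM (-0.91). In the cKO split, where Btg2 was called, the immediate early sum was 10110 CPM in cells with and 8034 CPM in cells without Cdkn1a, with 3 of 15 genes higher. In thinned cKO cells it was 10672 CPM with and 7828 CPM without, with 5 of 15 higher, none lower and a median of 0.47; its part in the Btg2 values was not tested. Of 17 interferon response genes, 12 passed and all 12 were higher in cKO, with a median log2 ratio of 2.34. Among them, Oasl2 stood at 46.1 CPM in cKO and 4.26 CPM in control (3.44), Ifi27l2a at 453 and 48.3 CPM (3.23) and Rtp4 at 84.7 and 15.9 CPM (2.41). Oasl2 and Rtp4 passed the minimum only through their cKO level, so they had to differ. In microglia the interferon list moved with the members between libraries. In several other classes it rose with few or no members. Of interferon genes that passed, 9 of 9 were higher in astrocytes, 14 of 16 in endothelial cells and 10 of 10 in ependymal cells. Members higher there numbered 0, 0 and 1. In pericytes or smooth muscle cells 9 of 9 interferon genes and 3 members were higher. The microglial interferon sum was 2058 CPM in cKO cells with and 1340 CPM in cKO cells without Cdkn1a, with 8 of 15 genes higher. In the matching control cells it was 388 and 447 CPM. In thinned cKO cells the sums were 1906 CPM with and 1512 CPM without, and 1 of 14 genes was called, with a median of 0.25. Its part in the member values was not tested. Of 12 cell cycle genes 1 passed in microglia and it was not called.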

How the data were processed

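Single-cell RNA was measured with a 10x 3′ kit in 1 cKO and 1 control library. The authors deposited UMI counts, raw and per gene. Cell Ranger 7.1.0 and build mm10 are named in the submitters' processing notes, which leave the annotation release and intron setting unstated. The deposited cKO matrix lists 2377349 barcodes and the control matrix 10942. Of the gene identifiers, 99.6% are in GENCODE vM21, which gave the coordinates.

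Cells with at least 1000 UMIs, at least 500 genes and at most 10% mitochondrial UMIs were kept. Scrublet, with an expected share of 6%, called 3.56% of cKO and 5.50% of control cells as doublets, which were removed. Cells of both libraries were clustered together (2000 variable genes without the members and Cdkn1a, 30 components, 15 neighbours, Leiden resolution 1.0), and clusters were named from marker lists. A cluster with more than 0.62 of the markers of a second class stayed unnamed; this limit was set after the clusters were seen and left out 6.22% of cKO and 2.03% of control cells (endothelial and pericyte markers), 1.88% and 1.10% (neural progenitor), 1.52% and 0.971% (T or NK cell) and 0.461% and 0.184% (B cell). Classes with at least 100 cells in both libraries, and border macrophages, were compared.

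UMIs were summed per class and library. CPM has exact Poisson intervals, ratios exact conditional intervals and shares of cells exact Clopper-Pearson intervals. A call needed a ratio of at least 1.5-fold, an interval without equality and a mean of at least 20 CPM. Cdkn1a was left out of the totals in its own split. Full values are given by a rule for members called in microglia or in the cKO split, for Trp53 and for Mdm2, and for up to 3 called genes of each other list with the highest absolute ratios. The interval and call steps were tested on simulated data. Members, lists and tests were chosen with earlier results of these data known. Python 3.11.15, numpy 2.4.6, scipy 1.17.1, pandas 2.3.3, scanpy 1.11.5, leidenalg 0.10.2, scikit-learn 1.9.0 and matplotlib 3.10.9 were used.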

Additional observations from a re-analysis of the deposited data

Results flagged for a closer look

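Phlda3 moved in opposite directions in different classes of the same libraries. Its log2 ratio of cKO over control was 3.65 in microglia, on 166 cKO and 19 control UMIs, and -1.08 in pericytes or smooth muscle cells, on 30 cKO and 60 control UMIs. The difference between the classes was not tested, since there is 1 library per genotype.

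A cluster outside the compared classes, with microglial and cell cycle genes, held 52 cKO cells and 1 control cell. Its cKO cells had a member sum of 2984 CPM (2833 to 3142), with Cdkn1a at 1234 CPM, the proliferation marker Mki67 at 899 CPM, Rps27l at 614 CPM, Bax at 380 CPM, Ccng1 at 127 CPM and Phlda3 at 69.8 CPM. High p21 RNA and proliferation RNA were thus measured in the same cluster. With 1 control cell the libraries were not compared there.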

How the results depend on the processing

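No paired analysis was possible because there was 1 library per group. Of the 11 members higher in cKO microglia, Bax, Gdf15, Rps27l and Dcxr stayed past the threshold in all 14 settings run and Mdm2 in 11, and no ratio of the 11 changed sign; Phlda3 ranged from 2.60 to 4.01 and fell under the minimum in thinned cells. The microglial count of higher members was 17 with no filter on low counts and 5 with a mean of at least 50 CPM. In microglia without a Cdkn1a UMI, 1 member was lower with a floor of 2000 UMIs, mitochondrial limits of 5% and 20%, median-of-ratios scaling, no filter, or only the deeper microglial cluster (chosen after seeing the data); the higher count was 1 at 50 CPM or 2-fold, and 7 with a median of 0.47 in thinned cells. In the cKO split, 6 were higher at 50 CPM and 7 at 2-fold, and thinning turned Ei24 to -0.025 and Dcxr to -0.11. In the control split, the count was 1 with a floor of 2000 UMIs, at 50 CPM, in thinned cells or within the 25th to 75th percentile of UMI totals, and 0 at 2-fold; the median was 1.02 in thinned cells. In border macrophages 1 was lower with a floor of 2000 UMIs, a limit of 5% or median-of-ratios scaling, and the higher count was 3 at 50 CPM, 2 at 2-fold and 1 in thinned cells. Members past the threshold in astrocytes numbered 1 at a limit of 5% and 2 in thinned cells; in neuroblasts 1 at a limit of 5%; in oligodendrocytes 2 (median -0.16) with no filter; in endothelial cells 3 with no filter and 0 at 2-fold; in ependymal cells 3 with no filter and 2 (median 0.34) in thinned cells. In pericytes or smooth muscle cells they numbered 2 with a limit of 5% (median 0.24) or doublet calls kept, 7 with no filter (median 0.26), and 1 at 2-fold or in thinned cells (median 0.27). Median-of-ratios scaling shifted ratios by at most 0.08 in any comparison. Shares over all genes are given, above, only for the main setting and some thinned comparisons. Nothing is read from counts of members under the other settings. The causes of these moves were not tested. Depth limits the death receptors in microglia, the thinned values and most members in border macrophages.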
